A study of Mus musculus with 4 samples.

Results

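Ly6c2-positive cells that pass for classical monocytes were picked out of live CD45+ leukocytes of mouse fibrosarcomas, and 181 of 27705 filtered cells (0.653%) met the rule. The cells were chosen by their own transcript counts. A cell needed at least 200 genes, at most 10% mitochondrial UMIs (unique molecular identifiers, each marking a captured RNA molecule), at least 3 Ly6c2 UMIs and at least 1 Csf1r UMI. It could hold at most 5 UMIs summed over C1qa, C1qb and C1qc, 1 of Thbs1, 2 of Cxcl9, 1 over Ace and Adgre4, 2 over Mki67 and Top2a, and 1 over Cd3d, Cd3e and Cd3g. The levels of these 14 genes are therefore given as description, with no test.

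The DKO tumours grew from Raldh1/3 double knockout (DKO) fibrosarcoma cells, which lack the retinoic acid-making enzymes encoded by Aldh1a1 and Aldh1a3, and the control tumours from Cas9 control cells. The deletion was in the tumour cells, so the leukocytes of both groups were of the host. All tumours were untreated and were taken on day 11, and each of the 2 libraries per group was a pool of 2 tumours. The question was how monocytes in tumours without these enzymes differ from those in control tumours. The gated cells held 0 UMIs of Aldh1a1 and of Aldh1a3 in every library, so the deletion could not be checked in them.

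Classical monocytes leave the bone marrow by way of the chemokine receptor Ccr2, carry Ly6C on their surface in the mouse and enter inflamed tissue and tumours. There they can become macrophages, which make C1q and Apoe, or cells with features of dendritic cells, which carry much MHC class II. Patrolling nonclassical monocytes, marked by Ace and Adgre4 transcripts in the mouse, carry little Ly6C. Ly6C is also found on T cells and on plasmacytoid dendritic cells, so Ly6c2 alone does not name a monocyte. Retinoic acid acts through nuclear receptors and is known to bias monocytes between the macrophage and the dendritic fate.

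The gate held 34 cells in DKO 1 and 47 cells in DKO 2, against 48 cells in control 1 and 52 cells in control 2. Their median depth was 5793.5 and 9511 UMIs in DKO 1 and 2 and 7046.5 and 7185.5 UMIs in control 1 and 2. The summed depth was 202450 and 449305 UMIs in the DKO libraries and 345364 and 367237 UMIs in the control libraries. DKO 2 was the deepest and DKO 1 the shallowest, so the smallest sum lay in a DKO library. None of the 181 cells had a barcode that occurred in a second library, and 110 barcodes of the series occurred in more than a single library. A doublet score marked 0 and 2 cells in DKO 1 and 2 and 2 cells in each control library.

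Of the cells with both Ly6c2 and Csf1r, the Thbs1 limit removed the most. Of 4794 filtered cells with 3 or more Ly6c2 UMIs, 2368 also had Csf1r, and 181 of these (7.64%) met every further limit. Thbs1 removed 1607 of the 2368 cells (67.9%), and 709 cells were removed by it alone. C1q transcripts removed 865 cells, Cxcl9 removed 733 and the Cd3 genes removed 300. The 709 cells that met everything except Thbs1, with 2 or more of its UMIs, are called Thbs1-positive monocytes here. The 9196 cells with Csf1r, 6 or more C1q UMIs and at most 2 Ly6c2 UMIs that met the same limits on Ace and Adgre4, cycle and Cd3 genes are called C1q-high macrophages. The 321 Ace/Adgre4 monocytes had Csf1r, 2 or more UMIs over Ace and Adgre4, at most 5 C1q UMIs and the same limits on cycle and Cd3 genes.

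Against the markers of the label, the gate was mixed. Ccr2, the receptor for exit from the marrow, was found in 91.7% of gated cells and Plac8 in 92.3%. The coagulation factor gene F13a1 was found in 45.9%, Chil3 in 43.6%, Hp (haptoglobin) in 35.4% and Vcan (the matrix proteoglycan versican) in 29.8%. In 5302 T cells with 3 or more Cd3 UMIs and no Csf1r UMI, which should lack the last pair, Hp was found in 0.396% and Vcan in 0.679%. Median depth was 7190 UMIs in the gated cells and 5397 UMIs in those T cells. The shares of Hp and Vcan thus lay far above this background, but most gated cells showed neither transcript. Macrophage markers that the gate did not limit were also found. Apoe was in 75.7% of gated cells, Mrc1 in 49.2%, Adgre1 in 33.7% and Mertk in 6.63%. In the T cells these shares were 50%, 17.0%, 3.21% and 0.283%.

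Vcan and Hp were higher in the monocytes that the Thbs1 limit removed. Vcan stood at 64.2 and 153.6 CPM (UMIs of a gene over all UMIs of the library's summed cells, on the usual CPM scale) in gated cells of DKO 1 and 2 and at 101.3 and 272.3 CPM in those of control 1 and 2. In Thbs1-positive monocytes it stood at 410.5 and 592 CPM in DKO and 541.2 and 596.3 CPM in control. Each of the 4 libraries had more Vcan in the Thbs1-positive cells. Hp stood at 242 and 140.2 CPM in gated cells of DKO and 321.4 and 400.3 CPM in those of control, against 291.8 and 425.5 CPM and 447.2 and 694 CPM in the Thbs1-positive cells. In C1q-high macrophages Hp was 1.745 and 1.687 CPM in DKO and 3.92 and 6.748 CPM in control. Both genes therefore set the gate apart from macrophages, and they were not at their highest in it. As the rules chose the cells, these levels have no test.

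**Figure D1:**
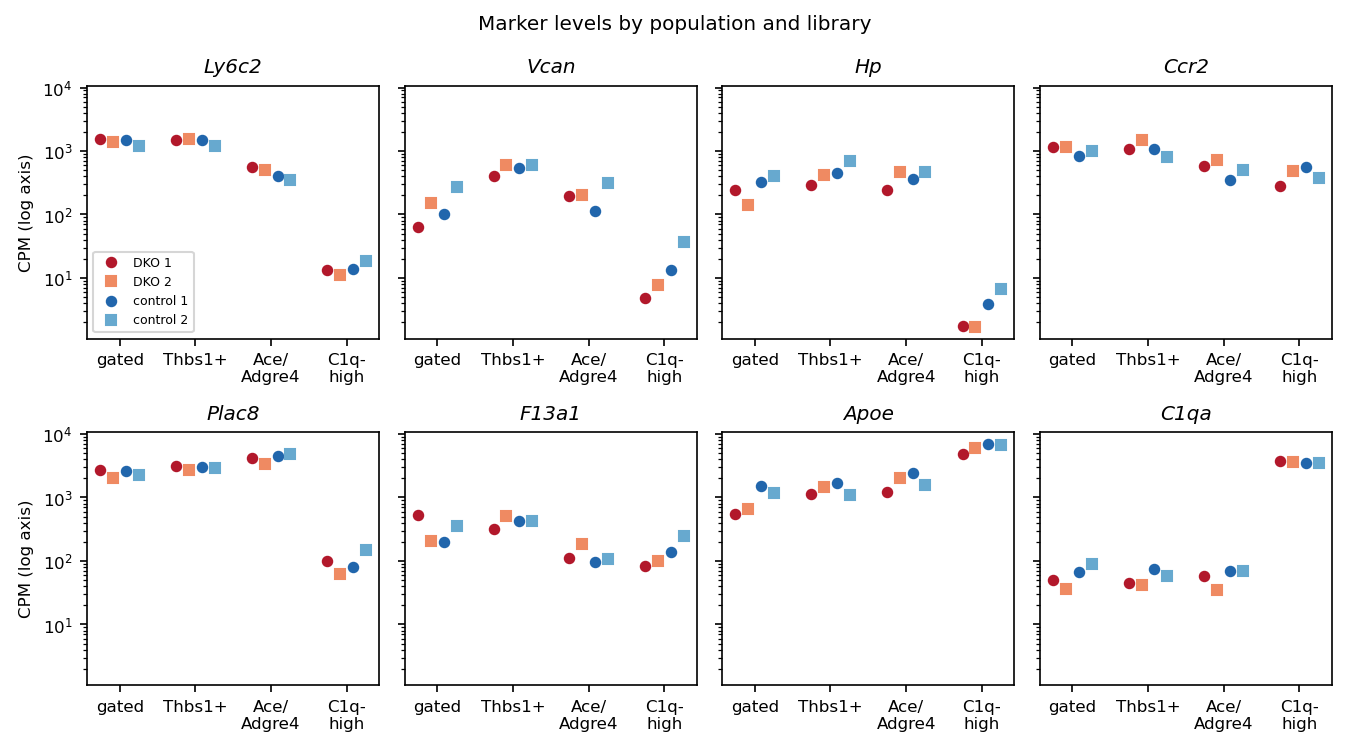
CPM of 8 marker genes on a log axis in gated monocytes, Thbs1-positive monocytes, Ace/Adgre4 monocytes and C1q-high macrophages, with a point for each of the 4 libraries (DKO red and orange, control dark and light blue). Vcan is higher in the Thbs1-positive cells than in the gate in each library, and C1qa and Apoe are highest in the C1q-high macrophages.

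The closest relative of the defining gene did not contribute. Ly6c2 (chr15:75108158-75111970, GRCm38) stood at 1571 and 1367 CPM in the DKO libraries and 1491 and 1187 CPM in the control libraries. Its neighbour Ly6c1 (chr15:75044018-75048830) had 1 UMI in DKO 1 and none in the other libraries. The counts as deposited thus gave nearly every read of this pair to Ly6c2, and how reads shared by both genes were assigned is not given in the sources used here.

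Cells with dendritic or lymphoid transcripts also passed the gate, and more of them in DKO 2. Flt3, Zbtb46, Xcr1, Clec9a and Cd209a, genes of dendritic cells, summed to 2 or more UMIs in 4 of 34 and 16 of 47 cells of DKO 1 and 2, against 9 of 48 and 3 of 52 cells of control 1 and 2. Siglech, Ccr9 and Cox6a2, genes of plasmacytoid dendritic cells, did so in 1 and 6 cells of DKO and 2 and 1 cells of control. Lymphocyte genes did so in 1 and 3 cells of DKO and 4 and 1 cells of control. In all, 43 of 181 cells (23.8%) carried such transcripts and 138 cells did not. The share with dendritic genes was 34.0% in DKO 2 (exact 95% interval 20.9 to 49.3, counting error only) and between 5.77% and 18.8% in the other 3 libraries. The defining B cell markers Cd79a and Ms4a1, the mast cell and basophil markers Cpa3, Mcpt8 and Ms4a2, the dendritic marker Xcr1 and the fibroblast marker Sparc were at 0 in all gated cells. The dendritic genes Clec9a and Ccr7 had 2 and 5 UMIs, and the fibroblast genes Col1a1, Col1a2 and Col3a1 had 1 UMI each. Of neutrophil markers, Csf3r was found in 40.9% of gated cells, S100a8 in 8.84%, and S100a9, Retnlg and Cxcr2 in 1.66% to 3.87%. Nr4a1, listed with nonclassical monocytes, was found in 55.8% of gated cells and 42.5% of the T cells.

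Within the gate, cells with more Ly6c2 carried more Hp, F13a1 and Lyz2 and less MHC class II. As means of the 4 libraries, Hp was 163.7, 198.3 and 547.4 CPM in cells with 3 to 5, 6 to 11 and 12 or more Ly6c2 UMIs (68, 61 and 52 cells). F13a1 was 169, 250.1 and 597.1 CPM over the same steps, and Lyz2 (lysozyme) was 5004, 5769 and 11490 CPM. H2-Ab1, a chain of MHC class II, was 4735, 2766 and 1894 CPM, and its invariant chain Cd74 was 10540, 6578 and 5189 CPM. Lysozyme, Hp and F13a1 were thus highest, and MHC class II lowest, in the cells with the most Ly6c2. Ccr2 (929.1, 928 and 1154 CPM) and Chil3 (708.5, 584.4 and 829.5 CPM) did not go up at each step. The plasmacytoid marker Siglech was 0, 171.2 and 203.2 CPM over the same steps, and the part of such cells in these values was not tested. Since Ly6c2 chose these steps and deeper cells reach higher counts, this is description. Just inside the limit, at 3 Ly6c2 UMIs, 29 cells averaged 106.8 CPM of Vcan and 128.8 CPM of Hp. Just outside it, at 2 UMIs, 55 cells averaged 68.26 CPM of Vcan and 95.18 CPM of Hp.

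Single cells spread widely in MHC class II. The share of a cell's UMIs from H2-Aa, H2-Ab1, H2-Eb1 and Cd74 had a lowest, median and highest value of 0%, 0.256% and 4.55% in DKO 1 and of 0.016%, 1.34% and 7.69% in DKO 2. It was 0.0125%, 0.596% and 6.67% in control 1 and 0%, 0.472% and 5.54% in control 2. The DKO libraries held the lowest and the highest median, with both control libraries between them.

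**Figure D2:**
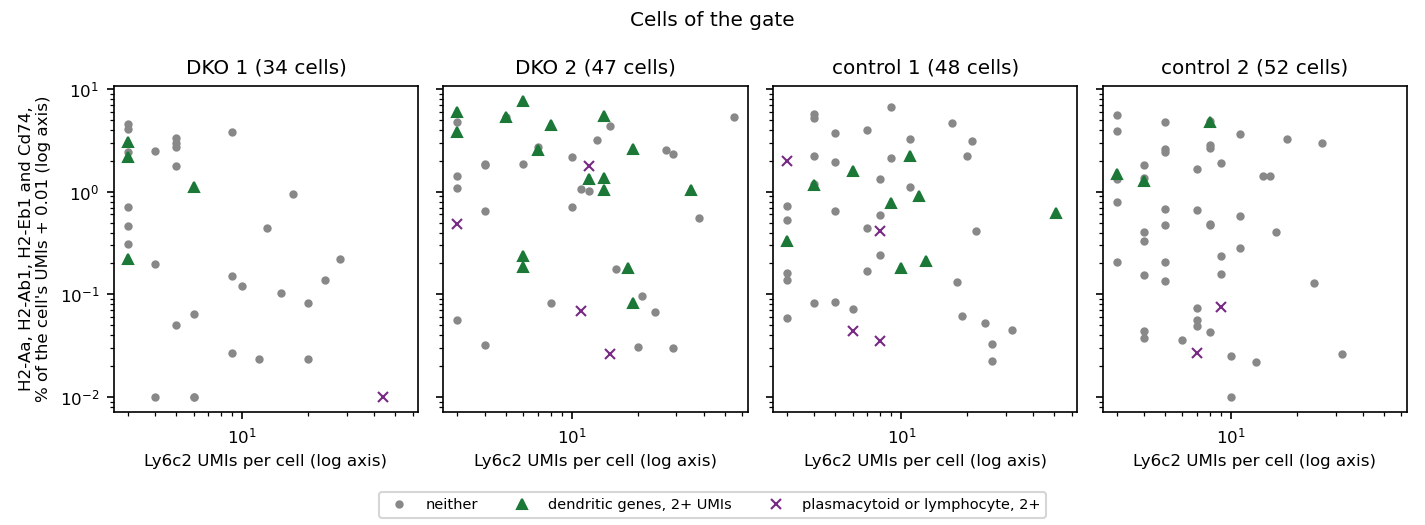
Ly6c2 UMIs per cell against the share of its UMIs from 4 MHC class II genes, both on log axes, with a panel for each library and a point for each gated cell. A share of 0.01% was added to each cell so that 0 can be drawn, and crosses mark cells with plasmacytoid or lymphocyte genes. Triangles mark cells with 2 or more UMIs of dendritic genes, which number 16 of 47 in DKO 2 and 4 of 34, 9 of 48 and 3 of 52 in the other libraries.

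The share of gated monocytes did not differ between the groups beyond the spread of their libraries. It was 0.518% and 0.967% of filtered cells in DKO 1 and 2 and 0.58% and 0.65% in control 1 and 2. The mean was 0.743 ± 0.318% in DKO and 0.615 ± 0.049% in control (SD, n = 2 each; log2 ratio 0.27, two-sided exact permutation p = 1). Both control libraries lay between the DKO libraries. Of cells with Csf1r and without T cell transcripts, gated monocytes made up 1.45 ± 0.639% in DKO and 0.949 ± 0.040% in control (log2 ratio 0.61, exact permutation p = 0.333, the smallest that 2 libraries against 2 allow). Without DKO 2 the first ratio turned to -0.25 and the second came to 0.07, so the difference rested on that library. Without the cells carrying dendritic, plasmacytoid or lymphocyte genes, a step chosen after the values were seen, the log2 ratios were -0.02 and 0.32. With every cell thinned to 3000 UMIs they were -0.10 and 0.24.

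Thbs1-positive monocytes were fewer in both DKO libraries, at 1.84% and 1.40% of filtered cells, against 2.46% and 3.95% in the control libraries (mean 1.62 ± 0.314% and 3.21 ± 1.05%, SD, n = 2 each; log2 ratio -0.98, exact permutation p = 0.333). The libraries did not overlap, and the p was the smallest the design allows. Ace/Adgre4 monocytes overlapped between the groups, at 1.08 ± 0.156% in DKO and 1.21 ± 0.324% in control.

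**Figure D3:**
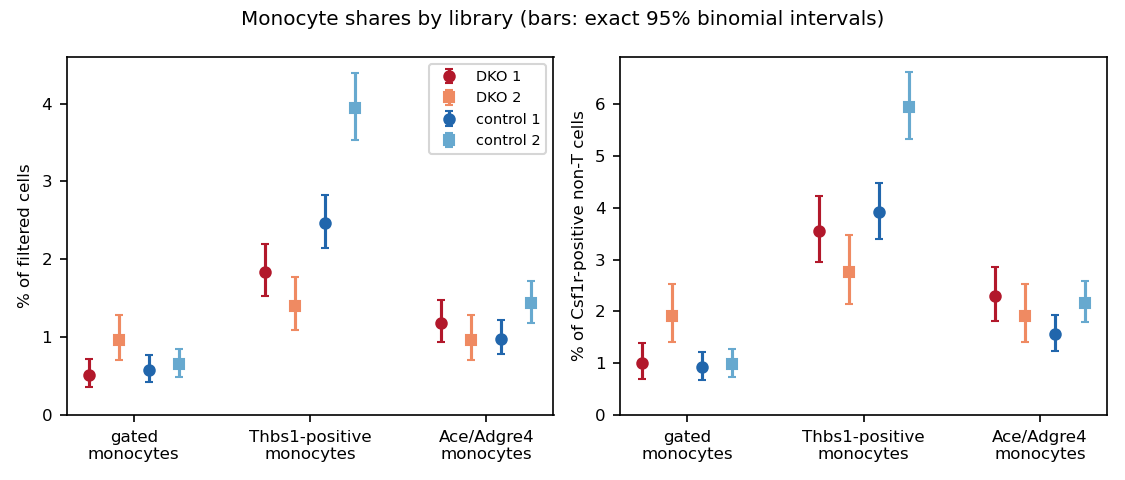
Share of gated monocytes, Thbs1-positive monocytes and Ace/Adgre4 monocytes in each library, in percent of filtered cells (left) and of Csf1r-positive non-T cells (right), with exact 95% binomial intervals. The DKO libraries (red, orange) lie on either side of the control libraries for gated monocytes in the left panel and below them for Thbs1-positive monocytes in both.

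Across genes, a single transcript passed the test in the gated monocytes. Gatm, which encodes glycine amidinotransferase, the enzyme of the first step of creatine synthesis, rose in DKO. It was the 1 called gene of 4982 tested (0.0201%), with the Benjamini-Hochberg adjusted p of edgeR's quasi-likelihood test at most 0.05. At an unadjusted p under 0.05, 202 genes (4.05%) were higher and 191 genes (3.83%) lower in DKO. Both DKO libraries stood above both control libraries for 23.5% of genes and below both for 15.1%. These shares are the background against which the counts below are read.

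Gatm (chr2:122594467-122611303, GRCm38, protein coding) stood at 419.9 and 360.6 CPM in the DKO libraries and 101.3 and 103.5 CPM in the control libraries. The groups did not overlap, and the log2 change was 1.84 ± 0.25 (SE; edgeR adjusted p = 0.0137). Cells with a Gatm UMI made up 47.1% and 55.3% of gated cells in DKO and 35.4% and 30.8% in control. The cell with the most Gatm gave 38.8% and 33.3% of the gene's UMIs in DKO and 14.3% and 26.3% in control. Without that cell in each library Gatm stood at 268.6 and 250.3 CPM in DKO and 88.5 and 77.42 CPM in control, still apart. The call held without each library in turn (log2 1.71 to 1.98). It was lost in cells with 6 or more Ly6c2 UMIs (log2 0.87, adjusted p = 0.618) and in cells with no C1q UMI (log2 1.48, adjusted p = 0.553). It was also lost with the replicate number as a block (log2 1.84, edgeR adjusted p = 0.227). C1q-high macrophages had more Gatm than the gated cells, at 958.2 and 1250 CPM in DKO and 1042 and 588.6 CPM in control, and the part of macrophage RNA in the gated value was not tested.

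The next genes by p did not pass the test, and Slc7a5 and Acod1 rested on few cells. Ccl24, an eosinophil-attracting chemokine, stood at 918.7 and 1093 CPM in DKO and 306.9 and 441.1 CPM in control (log2 1.35 ± 0.22, edgeR adjusted p = 0.0651). Without the highest cell of each library it stood at 681 and 703.7 CPM in DKO and 199 and 167.4 CPM in control, still apart. DESeq2 called it (adjusted p = 0.0133), and edgeR called it with doublets removed (0.00436) and without cells of dendritic, plasmacytoid or lymphocyte genes (0.00159). In cells with no C1q UMI its direction turned (log2 -1.36, adjusted p = 0.706). C1q-high macrophages had more Ccl24, at 2154 and 3101 CPM in DKO and 1318 and 1643 CPM in control (log2 0.81 ± 0.22, edgeR adjusted p = 0.339). Thbs1-positive monocytes had 1486 and 1474 CPM in DKO and 588.6 and 1411 CPM in control. The part of macrophage RNA in the gated Ccl24 value was not tested. Slc7a5, an amino acid transporter, stood at 44.46 and 64.54 CPM in DKO and 11.58 and 5.446 CPM in control, from 24 of 181 cells. Acod1, the enzyme that makes itaconate in activated macrophages, stood at 163 and 97.93 CPM in DKO and 23.16 and 46.29 CPM in control (log2 1.75 ± 0.41, adjusted p = 0.358). In cells of 3000 UMIs or more the log2 change was 0.52 (adjusted p = 0.95). In DKO 2 a single cell gave 84.1% of the Acod1 UMIs, and without the highest cell of each library the groups overlapped, at 124.5 and 15.65 CPM in DKO and 17.8 and 36.54 CPM in control. Values without the highest cell were computed after these genes had been seen and have no test.

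Further genes higher in DKO without passing the test were seen in 67 (Tnip3) to 132 (Lilr4b) of the 181 cells, and no cell gave over 20.4% of their UMIs in any library. Etv3, a transcriptional repressor of the ETS family, stood at 207.5 and 251.5 CPM in DKO and 95.55 and 100.8 CPM in control. Tnip3, an inhibitor of NF-kappaB signalling, stood at 266.7 and 271.5 CPM in DKO and 98.45 and 136.2 CPM in control. Clic4, an intracellular chloride channel protein, stood at 474.2 and 496.3 CPM in DKO and 272.2 and 207 CPM in control. In each of the 3 the libraries of the groups lay apart, with edgeR adjusted p-values of 0.358, 0.358 and 0.434. AI504432 (187.7 and 182.5 CPM in DKO, 66.6 and 57.18 CPM in control) and Lilr4b (400.1 and 427.3 CPM in DKO, 179.5 and 234.2 CPM in control) were apart in the same way. Lilr4b has a close paralog beside it in the mouse, and how reads shared by both were counted is not given in the sources used here.

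Apoe, the lipid carrier that macrophages make in large amounts, was the gene with the smallest p among those lower in DKO. It stood at 548.3 and 656.6 CPM in DKO and 1494 and 1187 CPM in control (log2 -1.23 ± 0.22, edgeR adjusted p = 0.0926). The groups did not overlap, also without the highest cell of each library (446.1 and 565.6 CPM in DKO, 1230 and 1039 CPM in control). DESeq2 called it at an adjusted p of 0.0242. Without the cells carrying dendritic, plasmacytoid or lymphocyte genes its log2 change was -0.86 (edgeR adjusted p = 0.349). Apoe was also found in 50% of the 5302 T cells described above. The macrophage markers C1qa, C1qb, C1qc, Apoe, Mertk, Adgre1 and Mrc1 were summed in those T cells. They stood at 232.2 and 232.2 CPM in DKO and 370.5 and 427.9 CPM in control. The part of macrophage RNA in the gated Apoe value was not tested.

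Ccl5, a chemokine of T and NK cells, stood at 410 and 224.8 CPM in DKO and 833.9 and 925.8 CPM in control (log2 -1.58 ± 0.28, edgeR adjusted p = 0.107). A single cell gave 81.9% and 80.2% of its UMIs in the DKO libraries and 80.6% and 81.8% in the control libraries. Without that cell Ccl5 stood at 76.71 and 45.42 CPM in DKO and 165 and 172.6 CPM in control, still apart. Gzma, a granzyme of the same lymphocytes, had 151 and 215 UMIs in DKO and 236 and 2 UMIs in control, and its highest cell held 150, 203 and 228 of them in the first 3 libraries. Hp, a marker given with the label, was lower in both DKO libraries (log2 -1.04 ± 0.28, adjusted p = 0.476), in 44.1% and 29.8% of cells in DKO and 33.3% and 36.5% of cells in control. Further genes of small p and lower level in DKO were AY036118, Psmg4 (a proteasome assembly chaperone), Hspe1 (a mitochondrial chaperonin) and Dok1 (an adaptor of tyrosine kinases), with log2 changes between -1.58 and -0.83.

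**Figure D4:**
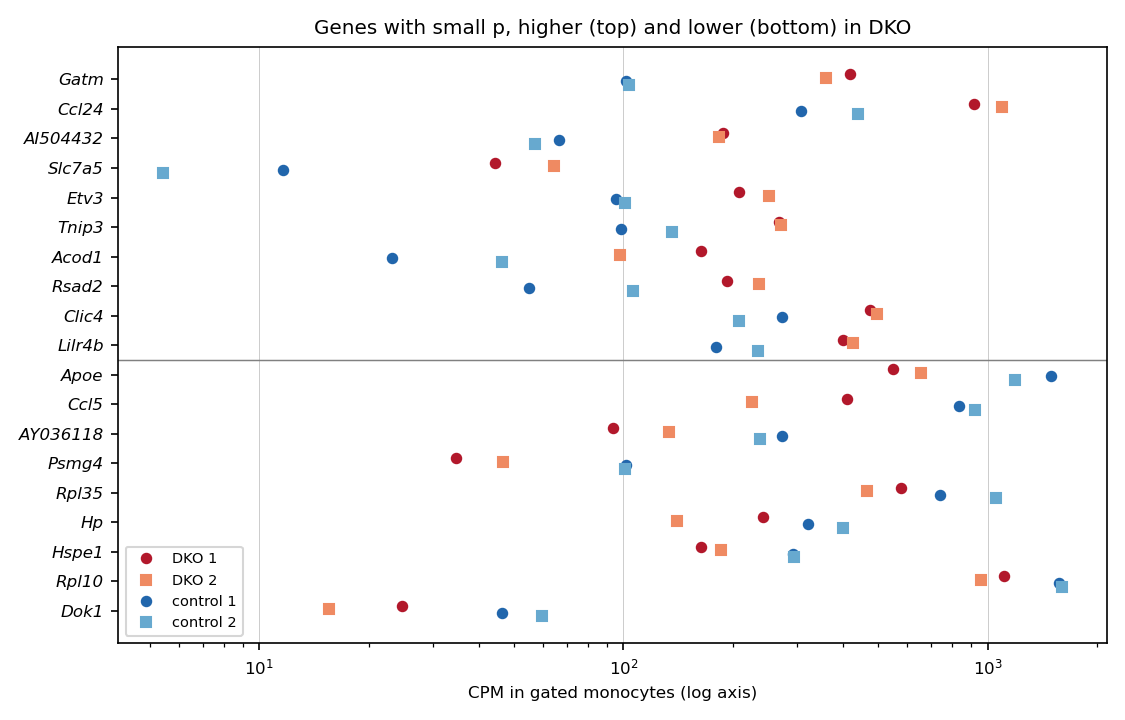
CPM on a log axis, in each of the 4 libraries, of genes with the smallest p that were higher in DKO (top) and lower in DKO (bottom), at 20 CPM or more in the higher group. Gatm, at 419.9 and 360.6 CPM in DKO and 101.3 and 103.5 CPM in control, is the 1 gene shown that passed the adjusted test.

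Apart from Gatm, which is in none of the lists, no member of any gene list passed the adjusted test, so the lists are described by direction. Over all 4982 genes the median log2 change was -0.004, with 2474 genes higher and 2508 lower in DKO. Cytosolic ribosomal protein genes, which encode the parts of the ribosome, stood out by number: 76 of 77 were lower in DKO, with a median of -0.37. Of these, 27 were lower at an unadjusted p under 0.05, and 59 had both DKO libraries below both control libraries. Rpl10 stood at 1106 and 959.3 CPM in DKO and 1566 and 1601 CPM in control (log2 -0.70 ± 0.21, edgeR adjusted p = 0.535). Rpl15 stood at 1121 and 965.9 CPM in DKO and 1627 and 1432 CPM in control (log2 -0.64 ± 0.21). Rpl35 stood at 577.9 and 465.2 CPM in DKO and 738.4 and 1054 CPM in control (log2 -0.86 ± 0.23). Genes of the ribosome thus lay lower together, by a modest size each.

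Summed, ribosomal protein genes gave 13.8% and 11.8% of UMIs in gated cells of DKO 1 and 2 and 16.6% and 15.1% in those of control 1 and 2. In Thbs1-positive monocytes they gave 11.2% and 11.1% in DKO and 13.7% and 14.6% in control. In C1q-high macrophages they gave 14.2% and 12.1% in DKO and 13.9% and 14.8% in control, and over all filtered cells 15.8% and 14.0% in DKO and 15.4% and 15.9% in control. By gene, 69 of 77 were lower in DKO in the macrophages and 75 of 77 in the Thbs1-positive cells. By summed share, the DKO libraries lay below the control libraries in both monocyte populations and overlapped them in the macrophages and over all cells. Depth moved with these shares in part, as DKO 2 had the deepest gated cells and the lowest share, but DKO 1 had the shallowest gated cells. Its part in the result was not tested.

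Interferon gamma response genes, which include the guanylate-binding proteins and other defence GTPases, were mostly higher in DKO. Of 22 tested members 19 were higher, with a median log2 change of 0.68, and 15 had both DKO libraries above both control libraries. At an unadjusted p under 0.05, 6 were higher and none lower. Iigp1, an immunity-related GTPase, stood at 153.1 and 93.48 CPM in DKO and 55.01 and 27.23 CPM in control (log2 1.44 ± 0.41, edgeR adjusted p = 0.535). Gbp4 stood at 251.9 and 106.8 CPM in DKO and 55.01 and 59.91 CPM in control (log2 1.48 ± 0.42). Gbp7 stood at 256.9 and 218.1 CPM in DKO and 127.4 and 117.1 CPM in control (log2 0.86 ± 0.26). Gbp2 stood at 1121 and 565.3 CPM in DKO and 503.8 and 302.3 CPM in control (log2 0.97 ± 0.43). These guanylate-binding proteins were highest in DKO 1, and without that library the list's median was 0.27. The gate also limited Cxcl9, itself induced by interferon gamma. Of cells with Ly6c2 and Csf1r, 35.6% and 26.8% in DKO 1 and 2 failed that limit, and 31.3% and 29.6% in control 1 and 2. The part of this limit in the list's values was not tested.

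Type I interferon response genes had a smaller median of 0.31, with 20 of 26 tested members higher and 11 above in both DKO libraries. Rsad2, the antiviral enzyme viperin, stood at 192.6 and 235.9 CPM in DKO and 55.01 and 106.2 CPM in control (log2 1.34 ± 0.32, edgeR adjusted p = 0.358). Without the highest cell of each library it stood at 125.3 and 119.2 CPM in DKO and 32.61 and 74.74 CPM in control. Trim30a, another interferon-induced gene, stood at 301.3 and 276 CPM in DKO and 217.2 and 152.5 CPM in control. Ifi27l2a went the other way with overlapping groups, at 1719 and 1171 CPM in DKO and 1650 and 2470 CPM in control (log2 -0.59 ± 0.25). Of antigen presentation by MHC class I, 12 of 22 genes were higher, with a median of 0.02. Nlrc5, the activator of MHC class I genes, stood at 64.21 and 62.32 CPM in DKO and 31.85 and 27.23 CPM in control, and Tapbp, the peptide-loading protein tapasin, at 637.2 and 607.6 CPM in DKO and 393.8 and 452 CPM in control. B2m, the light chain, stood at 4381 and 3895 CPM in DKO and 2904 and 2982 CPM in control.

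To show the regulatory sequence that the interferon lists share, promoters were searched on both strands for GAAA, any 2 bases and GAAA, the core of the element bound by interferon-activated factors. Promoters were taken from RefSeq on GRCm38.p6, as 250 bases before to 50 after each start, and 15 of the 22 tested interferon gamma genes and 18 of the 26 type I genes matched. The element was in 10 of the 15 (66.7%) and 10 of the 18 (55.6%), against 3.99% of all 27025 genes of the table and 3.44% of its 32851 promoters. It was in none of 19 matched promoters of the fate transcription factors described next and in 7 of 58 (12.1%) of the ribosomal protein genes. A match is a description of the letters and not a bound site. Rsad2, Gbp7 and Gbp2 are shown as members whose levels are given above, each with 1 match in capitals, on the strand of the gene.
Rsad2 promoter (chr12:26456403-26456702, minus strand; match begins 120 bases before the start): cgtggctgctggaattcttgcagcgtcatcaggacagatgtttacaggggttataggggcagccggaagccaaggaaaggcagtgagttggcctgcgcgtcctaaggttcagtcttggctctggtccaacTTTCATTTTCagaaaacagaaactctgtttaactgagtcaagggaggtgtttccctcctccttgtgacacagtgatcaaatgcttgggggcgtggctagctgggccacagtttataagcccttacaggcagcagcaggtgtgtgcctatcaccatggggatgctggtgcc
Gbp7 promoter (chr3:142530086-142530385, plus strand; match begins 53 bases before the start): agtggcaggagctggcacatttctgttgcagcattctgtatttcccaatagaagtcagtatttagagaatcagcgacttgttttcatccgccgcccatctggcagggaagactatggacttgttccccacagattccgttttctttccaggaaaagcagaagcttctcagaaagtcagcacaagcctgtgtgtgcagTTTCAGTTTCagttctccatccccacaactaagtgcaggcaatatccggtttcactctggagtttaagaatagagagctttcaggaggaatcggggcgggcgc
Gbp2 promoter (chr3:142620413-142620712, plus strand; match begins 59 bases before the start): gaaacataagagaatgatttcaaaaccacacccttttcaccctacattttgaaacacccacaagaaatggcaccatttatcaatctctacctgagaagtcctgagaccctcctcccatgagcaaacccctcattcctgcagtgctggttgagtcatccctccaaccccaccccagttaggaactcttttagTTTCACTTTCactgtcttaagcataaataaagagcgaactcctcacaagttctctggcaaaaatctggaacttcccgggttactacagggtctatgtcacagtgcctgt

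Transcription factors of monocyte fate were mostly higher in DKO, with 24 of 27 tested genes higher, a median log2 change of 0.28 and 16 genes above in both DKO libraries. At an unadjusted p under 0.05, 6 were higher. Klf4, a factor needed for Ly6C monocytes, stood at 661.9 and 848 CPM in DKO and 448.8 and 362.2 CPM in control (log2 0.82 ± 0.22, edgeR adjusted p = 0.476). Klf6 stood at 1042 and 945.9 CPM in DKO and 610.9 and 577.3 CPM in control (log2 0.66 ± 0.21). Stat3, which carries cytokine signals, stood at 400.1 and 311.6 CPM in DKO and 234.5 and 185.2 CPM in control (log2 0.67 ± 0.25). Zeb2, which keeps cells in the macrophage and monocyte line, stood at 1042 and 881.4 CPM in DKO and 813.6 and 773.3 CPM in control. Klf6 is also counted among the genes that tissue digestion induces. In that stress list 16 of 24 genes were higher in DKO with a median of 0.18, from Egr2 at 103.7 and 48.96 CPM in DKO and 8.686 and 24.51 CPM in control to Hspe1 at 163 and 184.7 CPM in DKO and 292.4 and 294.1 CPM in control. The part of digestion in the values of Klf6 and the other factors was not tested.

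Genes of dendritic differentiation leaned toward DKO, and within the gate this rested on DKO 2. Of 16 tested members 15 were higher, with a median log2 change of 0.42, 2 of them at an unadjusted p under 0.05. Without DKO 2 the median was -0.05, and without the cells carrying dendritic, plasmacytoid or lymphocyte genes it was 0.26. Mgl2, a lectin of dendritic cells and macrophages, stood at 118.5 and 667.7 CPM in DKO and 66.6 and 103.5 CPM in control (log2 2.18 ± 1.06, edgeR adjusted p = 0.740). The related lectin Clec10a stood at 69.15 and 367.2 CPM in DKO and 185.3 and 152.5 CPM in control. Both were high in DKO 2. The log2 change of Clec10a was 0.37 over all gated cells. It was 0.85 without the cells carrying dendritic, plasmacytoid or lymphocyte genes. The part of such cells in these values was not tested. Tnip3 and Cd83 were apart in both libraries: Cd83, a surface protein of activated antigen-presenting cells, stood at 192.6 and 238.1 CPM in DKO and 133.2 and 51.74 CPM in control (log2 1.15 ± 0.39, adjusted p = 0.574).

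Within the gate, MHC class II followed the same library. Of 8 tested genes 7 were higher in DKO, with a median of 0.31, and none had an unadjusted p under 0.05. H2-Ab1 stood at 2914 and 4778 CPM in DKO and 2505 and 2742 CPM in control (log2 0.47 ± 0.23, edgeR adjusted p = 0.640), and Cd74 at 6589 and 10830 CPM in DKO and 6185 and 6987 CPM in control. Without DKO 2 the list's median was -0.11, and in cells with 6 or more Ly6c2 UMIs it was -0.18.

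Monocyte and macrophage identity lists lay close to the median of all genes. Of 24 tested classical monocyte genes 11 were higher and 13 lower in DKO (median -0.08), and of 11 nonclassical genes 5 were higher and 6 lower (median -0.07). Lyz2 stood at 7661 and 4908 CPM in DKO and 8435 and 7875 CPM in control (log2 -0.45 ± 0.25). Chil3 stood at 311.2 and 527.5 CPM in DKO and 503.8 and 1367 CPM in control (log2 -1.20 ± 0.55), Vcan had a log2 change of -0.77 ± 0.55, and S100a6 stood at 3685 and 3203 CPM in DKO and 3231 and 4202 CPM in control. Among the 11 higher members, Clec4e stood at 227.2 and 133.5 CPM in DKO and 78.18 and 130.7 CPM in control (log2 0.66 ± 0.35). F13a1 had a log2 change of 0.28, with overlapping groups. Of 20 macrophage differentiation genes 12 were lower (median -0.16), 3 of them at an unadjusted p under 0.05. Beside Apoe these were Ctsd, a lysosomal protease, at 266.7 and 238.1 CPM in DKO and 327.2 and 435.7 CPM in control, and the selenium carrier Selenop at 93.85 and 133.5 CPM in DKO and 194 and 149.8 CPM in control. The part of RNA from macrophages in the values of this list was not tested. Among nonclassical genes Gngt2 stood at 177.8 and 138 CPM in DKO and 176.6 and 285.9 CPM in control.

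Cytokine genes went both ways. Of 20 tested members 13 were higher and 7 lower in DKO, with a median of 0.19. Il1rn, which encodes the antagonist of the interleukin 1 receptor, stood at 489 and 338.3 CPM in DKO and 191.1 and 217.8 CPM in control (log2 0.92 ± 0.25, edgeR adjusted p = 0.490). Osm (oncostatin M) stood at 469.3 and 340.5 CPM in DKO and 199.8 and 226 CPM in control (log2 0.83 ± 0.25). Cxcl2, a neutrophil-attracting chemokine, stood at 844.7 and 469.6 CPM in DKO and 961.3 and 1503 CPM in control (log2 -0.995 ± 0.31), and Il1b overlapped between the groups at 1956 and 941.5 CPM in DKO and 880.2 and 1370 CPM in control. Among trafficking genes, 10 of 19 were higher with a median of 0.03. The adhesion molecule Icam1 stood at 118.5 and 124.6 CPM in DKO and 66.6 and 59.91 CPM in control. Ccr2 stood at 1141 and 1144 CPM in DKO and 833.9 and 988.5 CPM in control (log2 0.25 ± 0.20).

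Few genes of retinoic acid response or handling could be tested in so few cells. Of 28 such genes in the files 10 passed the filter on low counts, and 3 were higher and 7 lower in DKO (median -0.23). Tgm2, a transglutaminase induced by retinoic acid, stood at 899 and 690 CPM in DKO and 454.6 and 569.1 CPM in control (log2 0.55 ± 0.22, edgeR adjusted p = 0.580). Lower in DKO with overlapping groups were Cd38, an NAD-consuming surface enzyme, at 39.52 and 8.903 CPM in DKO and 34.75 and 54.46 CPM in control (log2 -1.28 ± 0.60), and the retinoid X receptor gene Rxrb at 34.58 and 11.13 CPM in DKO and 40.54 and 27.23 CPM in control (log2 -0.89 ± 0.61). The integrin gene Itga4 stood at 271.7 and 178.1 CPM in DKO and 280.9 and 204.2 CPM in control (log2 -0.22 ± 0.28). The other lists, of growth factor and pattern receptors, immune suppression, glycolysis and lipid handling, had medians between 0.03 and 0.13. In them Pfkp, a phosphofructokinase, stood at 375.4 and 496.3 CPM in DKO and 234.5 and 283.2 CPM in control, and its relative Pfkl at 44.46 and 55.64 CPM in DKO and 78.18 and 103.5 CPM in control. Lists of other cell types had few tested genes. Of T and NK cell transcripts 4 of 11 were higher (median -0.27), of B cell and plasmacytoid transcripts 5 of 7 (median 0.50), of neutrophil, mast and basophil transcripts 0 of 3 and of tumour and fibroblast transcripts 0 of 1. Of cell cycle genes 2 of 4 were higher.

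**Figure D5:**
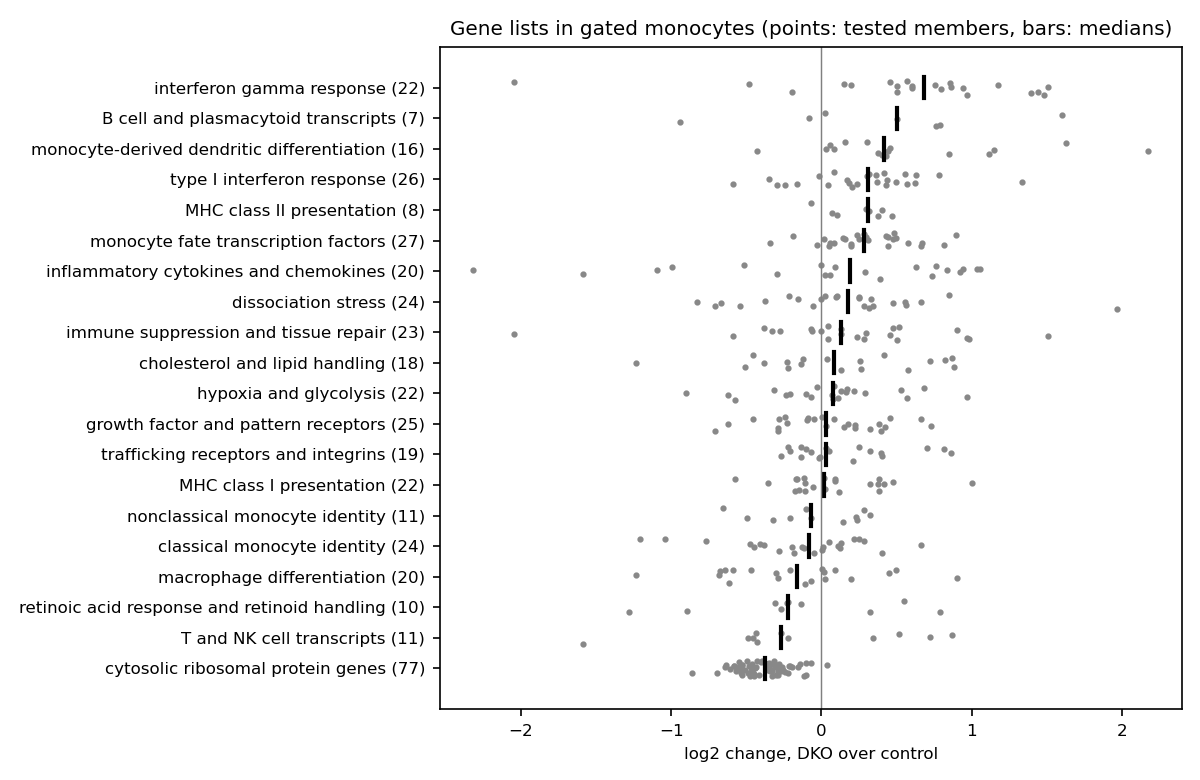
Log2 change (DKO over control) of each tested member of the gene lists with 5 or more tested members, as points spread at random in height, with a bar at each list's median and the number of tested members in brackets. Ribosomal protein genes lie to the left (76 of 77 below 0) and interferon gamma response genes to the right (19 of 22 above 0).

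To ask whether the changes were those of macrophages as well, the DKO change in gated monocytes was set against that in C1q-high macrophages of the same libraries, with the library as block. The gate limited Cxcl9 and Thbs1, and the macrophages had no such limits. The changes differed for 24 of 11679 genes (0.205%), 19 of them more positive and 5 more negative in the monocytes. Acod1 (chr14:103046977-103056573, GRCm38) differed by 2.38 ± 0.38 on the log2 scale (edgeR adjusted p = 3.18e-06). In macrophages it stood at 61.73 and 35.03 CPM in DKO and 56.71 and 79.05 CPM in control, with overlapping groups. Gatm differed by 1.39 ± 0.25 (adjusted p = 0.000192), with a log2 change of 0.43 ± 0.26 in the macrophages. Rsad2 differed by 1.65 ± 0.30 (adjusted p = 0.000192) and AA467197 by 1.14 ± 0.22 (adjusted p = 0.000481). AA467197 stood at 1655 and 1035 CPM in DKO and 405.4 and 806 CPM in control in the monocytes, and at 838.1 and 710.8 CPM in DKO and 757.2 and 789.4 CPM in control in the macrophages. These 4 genes thus had a higher DKO to control ratio in monocytes, and for Acod1 and Rsad2 single cells held much of the UMIs in DKO 2, as given above.

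More negative in the monocytes were Apoe (difference -0.84 ± 0.18, edgeR adjusted p = 0.00281) and Ccl5 (-1.14 ± 0.25, adjusted p = 0.00546). Apoe stood at 4787 and 5967 CPM in DKO and 6964 and 6746 CPM in control in the macrophages, far above its level in the gate. Nos2, the inducible nitric oxide synthase, differed by -2.64 ± 0.51 (adjusted p = 0.000647). Within the gated monocytes alone its log2 change was -2.05 ± 1.23 (edgeR adjusted p = 0.7625), with a larger SE. Nos2 was seen in 11 of 181 gated cells and was at 0 in DKO 2, and a single cell gave 95.8% of its UMIs in control 1. Without the highest cell of each library the groups overlapped, at 25.06 and 0 CPM in DKO and 2.967 and 22.5 CPM in control. Egr1, an immediate early gene, differed by -1.28 ± 0.30 (adjusted p = 0.0122), at 83.97 and 182.5 CPM in DKO and 153.5 and 266.9 CPM in control in the monocytes and 151.3 and 444 CPM in DKO and 201.3 and 180.5 CPM in control in the macrophages. The log2 change of Egr1 within the gated monocytes alone was -0.67 ± 0.35 (edgeR adjusted p = 0.689). Without DKO 2 the calls for Rsad2, Nos2, Apoe, Ccl5 and Egr1 were lost, and without DKO 1 those for AA467197 and Apoe. Without control 1 those for Gatm, Rsad2, AA467197, Nos2, Apoe and Ccl5 were lost, and without control 2 those for Rsad2 and Egr1. The Acod1 call held in all 4. In cells with 6 or more Ly6c2 UMIs the calls of 7 of the 8 genes were lost, Egr1 excepted, with a Gatm difference of 0.36 (adjusted p = 1). In cells with no C1q UMI those for Gatm (adjusted p = 0.723), Rsad2, Nos2, Ccl5 and Egr1 were lost. The Apoe call was also lost with doublets removed (adjusted p = 0.0765), and without cells of dendritic, plasmacytoid or lymphocyte genes the Apoe (-0.51, adjusted p = 0.318) and Ccl5 calls were lost.

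Set against the Thbs1-positive monocytes, no gene's change differed at an adjusted p of at most 0.05 in edgeR. Of 6286 genes 252 had an unadjusted p under 0.05, and the smallest adjusted p was 0.251, for Txnip. Txnip, an inhibitor of thioredoxin and glucose uptake, stood at 74.09 and 66.77 CPM in DKO and 124.5 and 100.8 CPM in control in the gated cells, and at 100.2 and 115.9 CPM in DKO and 50.15 and 44.18 CPM in control in the Thbs1-positive cells. Arl1, a GTPase of the Golgi, stood at 133.4 and 109.1 CPM in DKO and 52.12 and 54.46 CPM in control in the gated cells, against 76.66 and 70.61 CPM in DKO and 87.06 and 95.01 CPM in control. Nucb2 lay the same way, at 113.6 and 129.1 CPM in DKO and 66.6 and 43.57 CPM in control, against 46.99 and 52.5 CPM in DKO and 61.29 and 75.85 CPM in control. Gatm stood at 206.5 and 123.1 CPM in DKO and 104.5 and 73.9 CPM in control in the Thbs1-positive cells (log2 0.89 ± 0.25, edgeR adjusted p = 0.184). Ifng had 21 and 10 UMIs in gated cells of DKO, all in 1 cell of each library, and none in control. Siglech rested on 10 gated cells.

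Some of the lists lay alike by value in the larger Thbs1-positive population, which comes from the same libraries, and others did not. Interferon gamma genes had a median of 0.68 there and 0.68 in the gate, with 22 of 22 and 19 of 22 higher in DKO. Ribosomal protein genes had medians of -0.42 and -0.37, and fate transcription factors of 0.40 and 0.28. In C1q-high macrophages these medians were 0.38, -0.14 and 0.22. There 21 of 22 interferon gamma genes were higher in DKO, 69 of 77 ribosomal protein genes lower and 21 of 27 fate transcription factors higher. Dendritic differentiation genes had medians of 0.42 in the gate, 0.49 in Thbs1-positive monocytes (12 of 13 higher) and 0.45 in the macrophages (13 of 16 higher). MHC class II genes had medians of 0.31, 0.32 and 0.46 in the same order, with 8 of 8 higher in the latter populations. Classical monocyte genes had a median of -0.43 in the macrophages, where 21 of 24 were lower in DKO, against -0.08 in the gate. MHC class I genes had a median of 0.35 in the Thbs1-positive cells and 0.02 in the gate. Stress genes had 0.37 and 0.18, and nonclassical monocyte genes 0.14 and -0.07. None of these list differences was tested.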

How the data were processed

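Leukocytes of digested tumours, sorted for CD45, were profiled one by one with 10x Genomics 3′ chemistry. The deposited files held counts of UMIs per barcode and gene, whole numbers as the authors left them. Per the submitters' processing notes, Cell Ranger, Seurat 3.1.0 and R 3.6.0 were used and the builds GRCh38 and mm10 are named, and per the file headers the software version was 3.1.0. The 4 libraries held 57458026 to 80032966 UMIs in 5429 to 9206 barcodes.

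Cells were filtered and gated as given above, and counts were summed per library over the gated cells, since cells are not replicates. The p-values of the group fit and of the share tests measure the spread between these pools of tumours. Those of the population terms use a single estimate of spread per gene for both populations, after the library block. They do not measure the spread between the gated pools alone. Sums were fitted with edgeR 4.0.16 in R 4.3.3 (a filter on low counts by filterByExpr, TMM scaling, the robust form of the quasi-likelihood test, Benjamini-Hochberg adjustment over all genes tested), and the 20 gate and mitochondrial genes that passed the filter are not counted as calls. Differences of change between populations used a population-by-group term with the library as block. Shares used two-sided exact permutation tests (SciPy 1.17.1), and intervals are exact Clopper-Pearson ones that cover counting error only. The fits were tested on simulated data with known changes. DESeq2 1.42.0, RLE factors, no low-count filter, other gate limits, Scrublet scores (0.8% per 1000 barcodes removed), a mitochondrial limit of 5%, thinning and leaving out each library were alternatives. No correction for free RNA was made. Of 31053 features 30934 matched GENCODE vM21, which gave positions on GRCm38.

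The members and the gene lists were chosen with earlier results of these data known. Genes are named by rule: calls, the 10 of smallest p in each direction at 20 CPM or more, from each list the 3 of smallest p and the 2 of highest level, the gate and marker genes, and 4 in each direction for each population term. Ly6c1 and Gzma were added after their values were seen. Some genes the rule names are not reported here.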

Additional observations from a re-analysis of the deposited data

Results flagged for a closer look

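The DKO change of 8 named genes differed between gated monocytes and C1q-high macrophages in the same libraries, by the population-by-group term of edgeR. Of these genes only Gatm was called within the gated monocytes alone. The difference, monocytes minus macrophages on the log2 scale, was 2.38 for Acod1, 1.65 for Rsad2, 1.39 for Gatm and 1.14 for AA467197. It was -2.64 for Nos2, -1.28 for Egr1, -1.14 for Ccl5 and -0.84 for Apoe. For Acod1 the call held without each library in turn (adjusted p 5.74e-06 to 0.0283) and was lost in cells with 6 or more Ly6c2 UMIs (log2 difference 1.87, adjusted p = 0.27). In cells of 3000 UMIs or more the Acod1 change within the monocytes was 0.52 (adjusted p = 0.95). With 6 or more Ly6c2 UMIs the Gatm difference was 0.36 (adjusted p = 1), and the Apoe difference without cells of dendritic, plasmacytoid or lymphocyte genes was -0.51 (adjusted p = 0.318). Single cells gave 95.8% of the Nos2 UMIs in control 1, 84.1% of the Acod1 UMIs in DKO 2 and over 80% of the Ccl5 UMIs in each library.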

How the results depend on the processing

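The number of called genes in gated monocytes was 1 and depended on the setting. It was 25 with no filter on low counts, 4 with DESeq2, 3 with doublets removed and 3 with a mitochondrial limit of 5%. It was 4 without cells of other lineage genes, 4 without cells of dendritic, plasmacytoid or lymphocyte genes, and 21 to 71 without each library in turn, where the lone library of a group is assumed to vary like the other group's, so a call there does not support a gene that missed the test over all 4 libraries. It was 0 with Ly6c2 at 6 or more UMIs (305 genes at an unadjusted p under 0.05), 0 with C1q at 0 (145 genes) and 0 with the replicate block (339 genes). Gatm was among the calls in each setting with any. Over genes, the deviations of same-numbered libraries from their group means had r = -0.104. With 2 libraries in each group this is a single value, so it cannot decide whether the numbers pair the samples. The crossed pairing gave 1 call. Against C1q-high macrophages the count was 24, and it was 14 with C1q at 0 and 7 to 54 without each library. Against Thbs1-positive monocytes it was 0, and it was 12 with no filter, 1 with C1q at 0, 1 without cells of dendritic, plasmacytoid or lymphocyte genes, and 8 to 28 without each library. The log2 ratio of the share of filtered cells was 0.27, and it was -0.10 thinned to 3000 UMIs, -0.018 without cells of dendritic, plasmacytoid or lymphocyte genes, and -0.25 to 0.65 without each library. With C1q at 0, which left 56 cells, the log2 change was -1.36 for Ccl24, 0.11 for Lyz2, 0.25 for Ctsd and -0.29 for Cd74, and the Nos2 difference was 11.0, a value set by a group at 0. With Ly6c2 at 6 or more it was -0.044 for H2-Ab1 and -0.16 for Cd74. Without each library it ranged over -1.59 to 0.074 for Vcan, -1.34 to 1.01 for Clec10a, -0.052 to 0.61 for Cd74 and -0.36 to 0.75 for Il1b. The cause was not tested in any of these. With 34 to 52 cells a library, most genes had too few UMIs to be tested.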
